A study of Homo sapiens with 8 samples.

Results

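Small Cajal body RNAs are guide RNAs of the nucleus, and 7 of them were followed here in exosomes and in the cells that release them: SCARNA2, SCARNA7, SCARNA9, SCARNA10, SCARNA12, SCARNA20 and SCARNA22. They were chosen by symbol, with earlier results of these data known. All 7 have an entry among the 2709 non-coding features of the count tables, where 20 features carry a small Cajal body RNA symbol, and all 7 passed the filter on low counts. The exosome group holds 5 libraries of vesicles from the culture supernatant of MEC-1, a human line of leukaemic B cells established from chronic lymphocytic leukaemia. The cell group holds 3 libraries of MEC-1 cells. Both groups come from this 1 line, grown in bioreactors in DMEM with 10% fetal calf serum; serum vesicles had been removed from the medium except in the upper compartment of the bioreactor. Both were sequenced as small RNA, from RNA under 200 nt. According to the series' design text, cells paired with 3 of the 5 exosome samples were harvested, but the labels do not name the pairs. The comparison asked which small RNAs exosomes carry relative to their parental cells. Whether libraries of 1 group stem from separate cultures is not stated in the labels; the p-values therefore reflect only the spread among these libraries, which may be technical.

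Small Cajal body RNAs gather in Cajal bodies, the nuclear bodies in which spliceosomal snRNAs are matured, and pair with those snRNAs to place chemical marks on them. C/D box guides work with the methyltransferase fibrillarin and direct 2'-O-methylation, H/ACA box guides work with dyskerin and direct pseudouridylation, and composite guides hold both parts in 1 RNA. Most are cut out of introns of protein-coding genes, as snoRNAs are. In a B cell they are housekeeping nuclear RNAs, and exosomes form in the cytoplasm.

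The RNAs differ in build. SCARNA2, SCARNA7 and SCARNA9 are C/D guides, SCARNA10 and SCARNA12 composite guides, and SCARNA20 and SCARNA22 H/ACA guides. The sequences of 4 of them are shown: SCARNA2, SCARNA9 and SCARNA7 because they passed the test between exosomes and cells, and SCARNA22, which was not called, because it had the most reads per length in every exosome library. The longer RNAs are shown by their first and last 120 bases, and SCARNA22 whole. They are the RNA-sense transcripts of GENCODE release 29, written with T for U. Capitals mark TGATGA (the C box core), CTGA within the last 12 bases (the D box) or ACA placed 3 bases before the end.
SCARNA2 first bases: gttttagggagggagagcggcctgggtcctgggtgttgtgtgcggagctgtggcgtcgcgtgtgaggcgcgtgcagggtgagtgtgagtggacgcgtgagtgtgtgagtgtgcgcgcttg
SCARNA2 last bases: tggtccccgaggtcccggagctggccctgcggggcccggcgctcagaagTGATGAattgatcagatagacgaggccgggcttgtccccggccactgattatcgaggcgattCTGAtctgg
SCARNA9 first bases: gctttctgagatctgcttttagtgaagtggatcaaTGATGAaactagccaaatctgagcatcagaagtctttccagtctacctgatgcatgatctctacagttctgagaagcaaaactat
SCARNA9 last bases: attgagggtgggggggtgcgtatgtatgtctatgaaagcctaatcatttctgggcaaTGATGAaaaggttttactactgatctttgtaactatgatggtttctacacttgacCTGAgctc
SCARNA7 first bases: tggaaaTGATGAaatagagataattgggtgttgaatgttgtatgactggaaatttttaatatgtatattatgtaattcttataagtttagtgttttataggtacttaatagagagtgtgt
SCARNA7 last bases: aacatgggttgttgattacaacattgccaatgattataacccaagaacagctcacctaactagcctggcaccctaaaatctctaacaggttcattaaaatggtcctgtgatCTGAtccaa
SCARNA22: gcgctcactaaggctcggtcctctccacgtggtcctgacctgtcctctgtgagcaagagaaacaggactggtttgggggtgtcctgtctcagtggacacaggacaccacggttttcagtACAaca

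TGATGA was present in all 5 of the C/D and composite members and in neither H/ACA member, and the same held for CTGA within the last 12 bases. ACA at 3 bases before the end was found in SCARNA20 and SCARNA22 only. The search used the sense strand alone, and no CTGA that was counted shared letters with a TGATGA. Among other guide RNAs of the tables with a sequence, TGATGA occurred in 78.5% of 233 C/D and 4.44% of 90 H/ACA snoRNAs, CTGA near the end in 86.7% and 2.22%, and the ACA in 1.29% and 73.3%; most of these are shorter than the C/D and composite members. SCARNA9 holds TGATGA at 2 places and a long run of alternating G and T. Of its distinct 20-base words, 16.0% also occur in transcripts of genes elsewhere, against 0.643% for SCARNA7, 0.398% for SCARNA12 and none for SCARNA2, SCARNA10, SCARNA20 and SCARNA22. How reads with several matching places were counted is not given in the sources used here, so some SCARNA9 reads may be shared.

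In the GRCh37 coordinates of the tables, SCARNA2 lies at chr1:109642815-109643241 (plus strand), SCARNA7 at chr3:160232695-160233024 (minus strand), SCARNA9 at chr11:93454679-93455032 (plus) and SCARNA10 at chr12:6619388-6619717 (plus). SCARNA12 lies at chr12:7076500-7076769 (minus), SCARNA20 at chr17:58308877-58309007 (minus) and SCARNA22 at chr4:1976363-1976487 (plus). In GENCODE 29, SCARNA7 sits within introns of KPNA4, SCARNA9 of CEP295, SCARNA10 of NCAPD2, SCARNA20 of USP32 and SCARNA22 of NSD2, each on the host's strand. SCARNA12 lies in PHB2 and overlaps an annotated exon of it. SCARNA2 lies in no protein-coding gene there, overlaps an exon of the long non-coding RNA AL356488.2, and is known to be transcribed from a promoter of its own. The counted features are 427 nt long for SCARNA2, 354 nt for SCARNA9, 330 nt for SCARNA7 and SCARNA10, 270 nt for SCARNA12, 131 nt for SCARNA20 and 125 nt for SCARNA22. The first 5 of these exceed the 200 nt up to which RNA was isolated, so their reads may come from pieces of the RNA; the size and position of the reads were not examined here. No other feature of the tables overlaps any of the 7.

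Library totals ran from 23353820 to 32436286 counts in exosomes and from 25675636 to 57323598 in cells. The fit over all features (edgeR's quasi-likelihood test on raw counts with TMM scaling, Benjamini-Hochberg adjustment over 1178 tested features, called at an adjusted p under 0.05) called 244 features higher and 263 lower in exosomes. Called features were 20.7% of those tested for the higher direction, 22.3% for the lower and 43% in all. The blood and B-cell miRNAs with an entry, MIR150, MIR181A1 and MIR21, were present in every library and none was called, while MIR155 and MIR142 were not analysed here. Of 7 tested miRNAs of other tissues, 4 were higher in exosomes (MIR122, MIR143, MIR126 and MIR203) and none lower; their list summed to 113 to 270 CPM in exosomes and 58.8 to 90.7 CPM in cells, and the part of such RNA in the results was not tested. CPM here is the read count per 1e6 reads of the library, scaled by the TMM factors, and each value is relative to the rest of its library, so fewer vesicles with an RNA and less RNA per vesicle cannot be told apart.

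The 7 RNAs took 0.0301% ± 0.0114 of the reads of exosome libraries (SD, n = 5) and 0.0543% ± 0.00524 of those of cell libraries (SD, n = 3). The share ran from 0.0193% to 0.0475% in exosomes and from 0.0499% to 0.0601% in cells, so every exosome library lay below every cell library. Among reads other than rRNA the shares were 0.062% ± 0.0197 and 0.0748% ± 0.0107, and the groups overlapped. Over the 7, 2 fell, 1 rose and 4 did not pass the test; the 3 called are the same share as the 43% called among all tested features. Their median log2 fold change (exosome over cell) was -0.54, against -0.09 for all features tested.

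**Figure D1:**
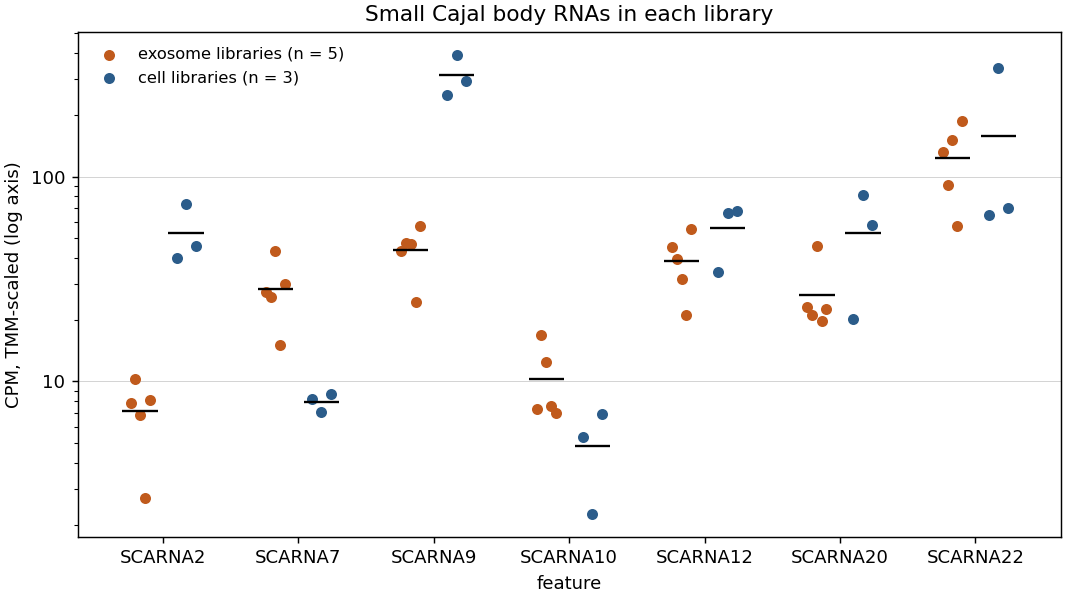
Level of each of the 7 small Cajal body RNAs in every library, as TMM-scaled CPM on a log axis; points are libraries (5 exosome, 3 cell) and bars are group means. SCARNA2 and SCARNA9 are lower in all exosome libraries, SCARNA7 is higher in all of them, and SCARNA12, SCARNA20 and SCARNA22 overlap between the groups.

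The C/D guides of U2 snRNA fell together. SCARNA9 guides 2'-O-methylation of U2 and had 43.5, 47.3, 47.0, 24.4 and 57.1 CPM in exosomes 1 to 5, against 251, 391 and 294 CPM in cells 1 to 3. Every exosome library lay far below every cell library, and exosome 4 was the lowest. The log2 fold change was -2.83 (SE 0.49, a 7.11-fold difference, edgeR adjusted p = 0.000419). With scaling from snoRNAs alone SCARNA9 was at -0.79 and not called (edgeR adjusted p = 0.271). SCARNA9 fell to a mean of 43.9 ± 12 CPM in exosomes, against 312 ± 71.8 CPM in cells (SD, n = 5 and 3).

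SCARNA2, which also guides methylation of U2, had 7.89, 10.3, 6.84, 2.70 and 8.11 CPM in exosomes 1 to 5, against 40.1, 73.4 and 45.8 CPM in cells 1 to 3. The groups did not overlap, and exosome 4 was again the lowest library. Its log2 fold change was -2.89 (SE 0.54, 7.41-fold, edgeR adjusted p = 0.00072). This was close to that of SCARNA9 and to the median of the C/D snoRNAs (-2.73). With scaling from snoRNAs alone SCARNA2 was at -0.90 and not called (edgeR adjusted p = 0.238). Exosome libraries below all cell libraries were seen in 20.1% of all tested features. Both RNAs are known to be cut in human cells into smaller stable RNAs that are found in the nucleolus; the tables count whole features and do not tell these apart.

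SCARNA7, the C/D guide known to direct methylation of U1 snRNA, moved the other way. It had 27.2, 25.9, 43.4, 15.1 and 29.9 CPM in exosomes 1 to 5, against 8.18, 7.09 and 8.67 CPM in cells 1 to 3. All exosome libraries lay above all cell libraries, as they did for 21.6% of all tested features. The cell libraries were close to each other (coefficient of variation 10.2%, against 35.8% in exosomes). The log2 fold change was 1.83 (SE 0.55, 3.55-fold, edgeR adjusted p = 0.0131), and the call was lost without cell 1 (log2 1.75, adjusted p = 0.0569).

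Neither composite guide was called in the fit over all features, and both were called higher with scaling from snoRNAs alone. SCARNA10, known to direct both kinds of mark on U5 snRNA, had 7.37, 16.9, 12.5, 7.63 and 6.99 CPM in exosomes 1 to 5, against 5.38, 2.26 and 6.90 CPM in cells 1 to 3. Exosomes 2 and 3 were the high libraries and cell 2 the low one, and the groups were apart only by the gap between exosome 5 and cell 3. Exosome libraries above all cell libraries were seen in 21.6% of tested features. The log2 fold change was 1.08 (SE 0.56, 95% interval -0.10 to 2.27, edgeR adjusted p = 0.129). It passed the threshold when only features with at least 50 counts in 3 libraries were tested (log2 1.47, adjusted p = 0.0356) and with scaling from snoRNAs alone (log2 2.94, adjusted p = 0.00555).

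SCARNA12, the other composite guide, had 45.1, 39.7, 31.5, 21.2 and 55.7 CPM in exosomes 1 to 5, against 34.1, 66.1 and 68.0 CPM in cells 1 to 3. The groups overlapped because cell 1 lay among the exosome libraries. The log2 fold change was -0.54 (SE 0.52, 95% interval -1.63 to 0.56, edgeR adjusted p = 0.43). That interval leaves room for a change of either sign, and with scaling from snoRNAs alone the value was 1.67 (edgeR adjusted p = 0.0424).

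The H/ACA guides were not called either. SCARNA20 had 23.2, 21.2, 45.8, 19.7 and 22.5 CPM in exosomes 1 to 5, against 20.2, 81.7 and 57.8 CPM in cells 1 to 3. Exosome 3 stood above the other exosome libraries, and cell 1 lay at their level while cells 2 and 3 were higher. The log2 fold change was -1.0 (SE 0.55, 95% interval -2.18 to 0.17, edgeR adjusted p = 0.154), and the value was 1.29 with scaling from snoRNAs alone (adjusted p = 0.101).

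SCARNA22, encoded in NSD2 and known for its high level in multiple myelomas whose translocation raises NSD2, had 132, 91.3, 150, 57.1 and 187 CPM in exosomes 1 to 5, against 64.9, 338 and 70.2 CPM in cells 1 to 3. Cell 2 was the highest library of all, while cells 1 and 3 lay near the lowest exosome library. The log2 fold change was -0.35 (SE 0.62, 95% interval -1.67 to 0.97, edgeR adjusted p = 0.684). Its sign turned without cell 2 (0.74, adjusted p = 0.337) and without exosome 4 (0.24, adjusted p = 0.788). With all 8 libraries it was also above 0 with total counts (0.19), upper-quartile scaling (0.03), the 50-count filter (0.11) and rRNA features left out (0.05), and it was called higher with scaling from snoRNAs alone (1.90, adjusted p = 0.0345). These values give no settled direction for SCARNA22.

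Levels of different RNAs were compared per length, as CPM per kilobase of counted feature. In exosomes the order was SCARNA22 (989 ± 406), SCARNA20 (202 ± 83.0), SCARNA12 (143 ± 48.6), SCARNA9 (124 ± 33.9), SCARNA7 (85.8 ± 30.7), SCARNA10 (31.1 ± 13.2) and SCARNA2 (16.8 ± 6.55; SD, n = 5). By range, only SCARNA22 was apart from its neighbour there, with a lowest library of 457 against a highest of 350 for SCARNA20. The ranges of every other pair of neighbours overlapped. Within each exosome library, SCARNA9 lay above SCARNA7, SCARNA7 above SCARNA10 and SCARNA10 above SCARNA2. SCARNA20 was below SCARNA12 in exosome 5 only (172 against 206), and SCARNA12 below SCARNA9 in exosome 3 only (117 against 133). In cells the order of levels per kilobase was SCARNA22 (1260 ± 1250), SCARNA9 (880 ± 203), SCARNA20 (406 ± 237), SCARNA12 (208 ± 70.4), SCARNA2 (124 ± 41.7), SCARNA7 (24.2 ± 2.46) and SCARNA10 (14.7 ± 7.16; SD, n = 3). There the ranges of SCARNA9 and SCARNA20, SCARNA2 and SCARNA7, and SCARNA7 and SCARNA10 did not overlap. Those of SCARNA22 and SCARNA9, SCARNA20 and SCARNA12, and SCARNA12 and SCARNA2 did. Within each cell library, though, SCARNA20 lay above SCARNA12 and SCARNA12 above SCARNA2. The first place of SCARNA22 in cells came from cell 2, at 2700 against 1100 for SCARNA9; in cells 1 and 3 SCARNA22 was at 519 and 562, below SCARNA9 at 708 and 830. SCARNA2 stood above SCARNA7 in every cell library and below it in every exosome library. RNAs above the size limit may be captured less fully than SCARNA20 and SCARNA22, so the order holds for reads in these libraries.

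The make-up of the small Cajal body RNA reads differed accordingly. SCARNA22 made up 43.3% ± 5.94 of the reads on the 7 features in exosomes and 21.1% ± 12.3 in cells. Cell 2 was at 35.2%, near the lowest exosome library at 36.1%. These are shares of a common total, so a lower share of any RNA raises those of the others. SCARNA9 made up 16.0% ± 1.79 in exosomes and 51.1% ± 9.40 in cells, and was the leading RNA of all 3 cell libraries; SCARNA22 led in all 5 exosome libraries. SCARNA7 made up 10.2% ± 1.73 in exosomes and 1.41% ± 0.611 in cells, and SCARNA2 made up 2.58% ± 0.904 and 8.48% ± 0.921. SCARNA12 (14% ± 2.70 and 9.08% ± 2.85) and SCARNA20 (9.91% ± 3.35 and 7.93% ± 2.91) had overlapping ranges, while SCARNA10 ran from 1.90% to 6.70% in exosomes and from 0.236% to 1.27% in cells.

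**Figure D2:**
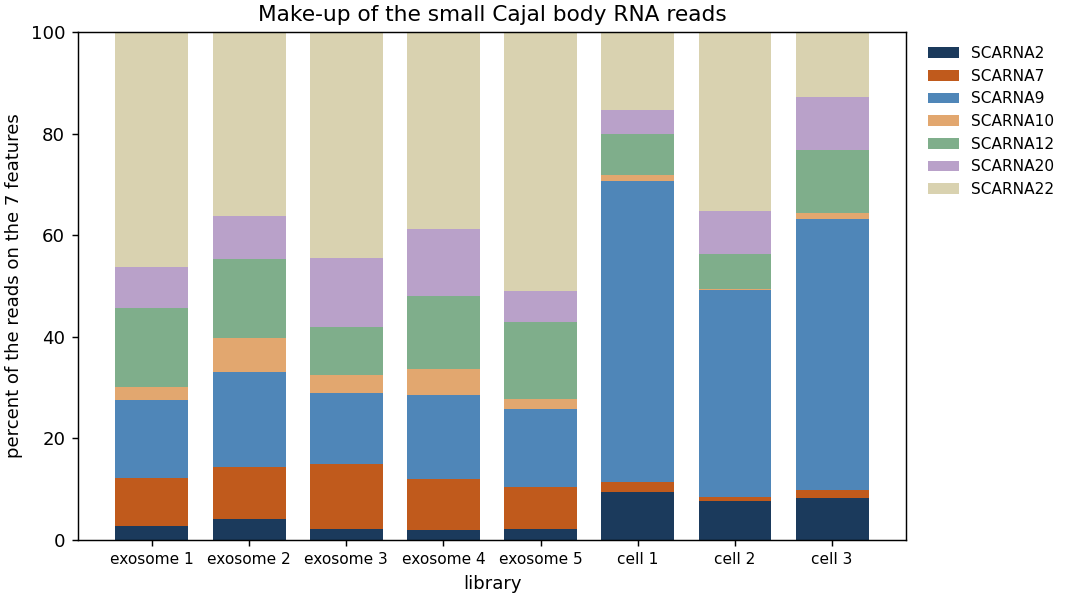
Percent of the reads on the 7 small Cajal body RNAs that fell on each of them, 1 bar per library (5 exosome, then 3 cell). SCARNA9 fills 40.8% to 59.2% of each cell bar and 13.9% to 18.7% of each exosome bar, where SCARNA22 is the largest part.

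Ratios of counts within a library do not depend on the scaling between libraries. SCARNA7 over SCARNA9 was 0.626, 0.548, 0.923, 0.618 and 0.524 in exosomes 1 to 5, against 0.0326, 0.0181 and 0.0295 in cells 1 to 3. The lowest exosome value was many times the highest cell value. SCARNA2 over SCARNA7 was 0.158 to 0.398 in exosomes and 4.91 to 10.4 in cells. SCARNA9 over SCARNA22 was 0.305 to 0.518 in exosomes and 1.16 to 4.18 in cells, with cell 2 nearest to the exosomes.

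Other ratios overlapped between the groups. SCARNA2 over SCARNA9, the U2 guides, was 0.181, 0.218, 0.145, 0.110 and 0.142 in exosomes 1 to 5, against 0.160, 0.188 and 0.156 in cells 1 to 3, so the cell values lay inside the exosome range. SCARNA7 over SCARNA10 was 1.53 to 4.28 in exosomes and 1.26 to 3.13 in cells, and SCARNA12 over SCARNA20 was 0.687 to 2.48 in exosomes and 0.809 to 1.69 in cells. Of the 21 pairs among the 7 RNAs, 14 had groups that did not overlap, against 39.9% of all pairs of tested features. The 7 pairs that overlapped were SCARNA2 with SCARNA9, SCARNA7 with SCARNA10, SCARNA10 with SCARNA12 and SCARNA22, and all 3 pairs among SCARNA12, SCARNA20 and SCARNA22. Pairs share RNAs, so the 21 are not independent.

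**Figure D3:**
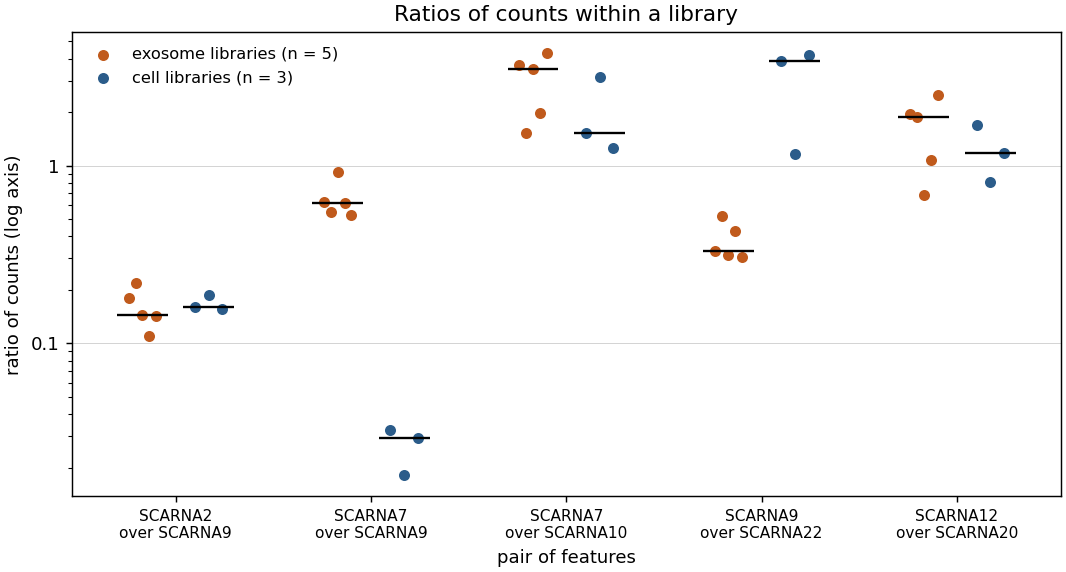
Ratio of the raw counts of 2 small Cajal body RNAs within each library, on a log axis, for 5 pairs; points are libraries (5 exosome, 3 cell) and bars are group medians. SCARNA2 over SCARNA9 lies between 0.110 and 0.218 in all 8 libraries, while SCARNA7 over SCARNA9 is 0.524 to 0.923 in exosomes and 0.0181 to 0.0326 in cells.

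Another 13 features carry a small Cajal body RNA symbol, and 11 of them were tested. In exosomes 5 of these fell, none rose and 6 did not pass the test (median log2 value -1.90), against 22.3% of all tested features called lower. The 5 were SCARNA14 (-3.15, edgeR adjusted p = 0.000349), SCARNA13 (-2.53, 0.00156), SCARNA6 (-2.45, 0.00239), SCARNA11 (-2.34, 0.00419) and SCARNA1 (-2.16, 0.0328), given as log2 fold change and adjusted p. SCARNA6 is a composite guide, like SCARNA10 and SCARNA12. Its level was 10.1 ± 4.4 CPM in exosomes, against 55.0 ± 12.7 CPM in cells (SD, n = 5 and 3), and its host gene ATG16L1 also holds SCARNA5 (-1.24, adjusted p = 0.0672).

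SCARNA4 (-1.28), SCARNA23 (-1.90), SCARNA18 (-1.38), SCARNA3 (-0.47) and SCARNA8 (0.84) were not called. SCARNA8, an H/ACA guide, was the only one of the 11 with a log2 value above 0 (edgeR adjusted p = 0.292). Its 5 exosome libraries lay above its 3 cell libraries, as in 21.6% of all tested features. SCARNA21 (21 reads in exosomes and 6 in cells) and SCARNA17 (4 and 9 reads) had too few reads to be tested. Over all 18 tested small Cajal body RNAs the median was -1.33, with 1 called higher and 7 lower. Among all tested features 20.7% were called higher and 22.3% lower. Calls occurred on both sides of the input size limit: of 8 over 200 nt, 1 rose and 4 fell (median -1.84), and of 10 under 200 nt, none rose and 3 fell (median -1.33). SCARNA7 and SCARNA10 are the same length and had the top values, while the longer SCARNA9 and SCARNA2 were near the bottom. The lowest value was that of a shorter RNA, SCARNA14 (136 nt, -3.15).

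**Figure D4:**
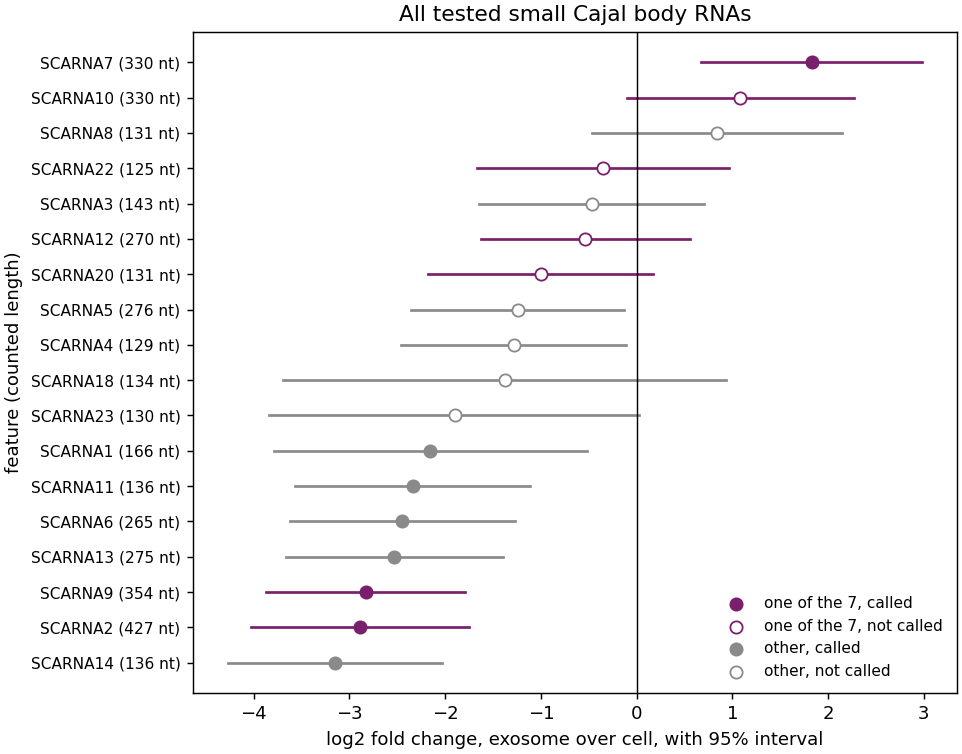
Log2 fold change (exosome over cell) with its 95% interval for each of the 18 tested small Cajal body RNAs, with the counted length; filled points passed an adjusted p of 0.05. SCARNA7 (1.83) is the top value and the only one called higher, and SCARNA2 (-2.89) and SCARNA9 (-2.83) lie beside SCARNA14 (-3.15) at the bottom.

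The snoRNAs, which share the box structures and proteins of small Cajal body RNAs but work in the nucleolus, included many features that were lower in exosomes. Of 146 C/D snoRNAs tested, 104 fell and 1 rose (median log2 -2.73), and of 82 H/ACA snoRNAs, 34 fell and 1 rose (median -1.51). Among all tested features 22.3% were called lower and 20.7% higher. Without cell 3, 15 H/ACA snoRNAs fell. SCARNA2 and SCARNA9 were near the C/D median, and SCARNA7 lay inside the C/D range of -7.16 to 2.69. By mean CPM over all 8 libraries, which the higher cell levels dominate for snoRNAs, the most abundant were SNORD2 (1530 ± 635 CPM in exosomes, against 58000 ± 22200 CPM in cells, log2 -5.24) and SNORD101 (-6.54) among C/D, and SNORA64 (-4.08) and SNORA18 (-0.97, not called) among H/ACA snoRNAs. The order in exosomes alone differed: SNORA81, the H/ACA snoRNA called higher (3.39), had 85.1 CPM in exosomes, above SNORA64 at 22.2 CPM. SNORA81 was chosen after its values were seen.

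The spliceosomal snRNAs are the targets of small Cajal body RNAs. Of 27 tested, 2 rose, 7 fell and 18 were not called (median -0.22), against 20.7% of all tested features called higher and 22.3% lower. Of these 27 snRNA features, 7 hold near-identical counts to another tested feature. The number that fell was 3 without exosome 3, 4 without exosome 4, cell 1 or cell 3, and the number that rose was 1 without cell 1 or cell 2. RNU5E-1, a U5 gene and the most abundant, had 746 ± 392 CPM in exosomes, against 792 ± 305 CPM in cells (log2 -0.09), and RNU12 of the minor spliceosome was at 0.98; neither was called. Values of U2 alone, the target of SCARNA2 and SCARNA9, are not reported here.

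**Figure D5:**
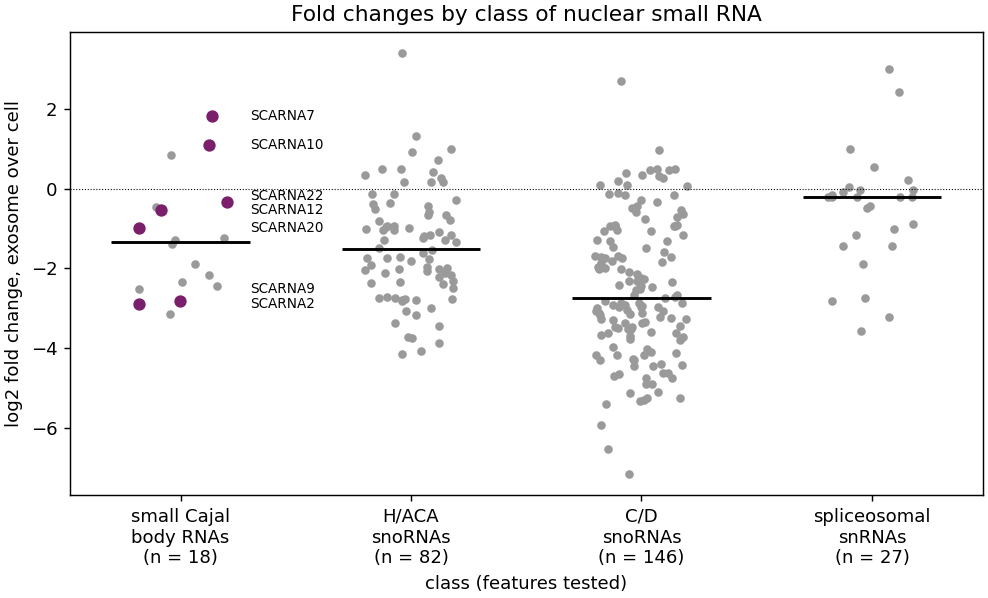
Log2 fold change (exosome over cell) of every tested feature in 4 classes of nuclear small RNA; points are features, purple points the 7 named RNAs and bars class medians. SCARNA7 and SCARNA10 lie above 0, and SCARNA2 and SCARNA9 lie near the C/D snoRNA median of -2.73.

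For each of the 7, the tested feature whose log2 CPM followed it most closely over the 8 libraries was found, as a description; the libraries share group and scaling. SNORD88C, a C/D snoRNA, was nearest to both SCARNA9 (Pearson r = 0.993) and SCARNA2 (r = 0.990), although its own log2 fold change was larger, at -5.94. The nearest to SCARNA7 was MIR100 (r = 0.950, log2 3.13) and the nearest to SCARNA10 was the large mitochondrial rRNA MT-RNR2 (r = 0.936, log2 1.99). C/D snoRNAs were nearest to SCARNA20 (SNORD109B, r = 0.952) and SCARNA12 (SNORD7, r = 0.883). SCARNA22 was nearest to the feature numbered 23705, of 72 nt on chromosome 6 (r = 0.904), for which the tables give no name.

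Scaling between libraries set the zero point of these fold changes. With factors taken from snoRNAs alone, the median over all features was 2.01 in place of -0.09, and 539 features were called higher and 52 lower in place of 244 and 263. Fold changes without centring on the median moved with it, so that the calls of SCARNA2 and SCARNA9 were lost and SCARNA10, SCARNA12 and SCARNA22 were called higher. Relative to that median, SCARNA2 was at -2.91 (against -2.80 in the fit above), SCARNA9 at -2.80 (-2.74), SCARNA7 at 1.70 (1.92) and SCARNA10 at 0.92 (1.17). SCARNA12 was at -0.34 (-0.45), SCARNA20 at -0.73 (-0.92) and SCARNA22 at -0.12 (-0.26), again relative to the median of all features. The order of the 7 was the same under both. A change of scaling moves all features by similar amounts, so this order and the centred values are no separate check.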

How the data were processed

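Small RNA libraries of MEC-1 exosomes (5) and cells (3) were grouped by their titles. The authors deposited read counts per feature that were not normalized. Per the submitters' processing notes, the authors used cutadapt 1.1, STAR, featureCounts and DESeq2 1.8.2 with GRCh37 (hg19, hs37d5). How strand and reads with several matching places were handled is not given in the sources used here.

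The 7 RNAs and the lists were chosen with earlier results of these data known. Counts were fitted with edgeR 4.0.16 (R 4.3.3): quasi-likelihood test, TMM factors, default filter on low counts (minimum 10) and Benjamini-Hochberg adjustment over all features tested. The standard error is the log2 fold change divided by the square root of F, and intervals are 95%. The pipeline was tested on simulated data. Alternatives used DESeq2 1.42.0, limma-voom (limma 3.58.1), other scaling, other filters, no rRNA features, near-identical features (within 2% or 5 reads in every library) counted once, libraries left out and a block on replicate number. Libraries carried no molecular identifiers, so depth covers counting error only. Named genes were the 7, all other small Cajal body RNAs, the 2 most abundant features of each related list and the feature closest to each of the 7 by Pearson correlation. Sequences and host genes came from GENCODE 29 (GRCh38); coordinates are those of the tables.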

Additional observations from a re-analysis of the deposited data

Results flagged for a closer look

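In the 5 exosome libraries, 1 library stood far from the other 4 in 7 of 43 quantities examined by the gap to the nearest library as a share of the whole range; chance alone gives about 1 in 20, and ratios that share an RNA are not independent. For SCARNA20 the gap was 0.867 of the range, with exosome 3 at 45.8 CPM and the others at 19.7 to 23.2 CPM. For SCARNA3 it was 0.873, with exosome 5 at 19.6 CPM and the others at 4.99 to 6.84 CPM. For SCARNA14 it was 0.786, with exosome 4 at 3.49 CPM and the others at 7.43 to 8.5 CPM. Exosome 2 stood apart in SCARNA2 over SCARNA22 (gap 0.764, ratio 0.113 against 0.0433 to 0.0597) and in SCARNA10 over SCARNA20 (gap 0.783, ratio 0.797 against 0.272 to 0.386). Exosome 3 stood apart in SCARNA7 over SCARNA9 (gap 0.745, ratio 0.923 against 0.524 to 0.626) and in SCARNA7 over SCARNA12 (gap 0.792, ratio 1.38 against 0.537 to 0.712).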

How the results depend on the processing

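SCARNA2, SCARNA7 and SCARNA9 kept their direction in all 19 alternatives and each kept its call in 18. With 1 library left out, the log2 value was -3.12 to -2.31 for SCARNA2, -3.05 to -2.31 for SCARNA9, 1.65 to 2.32 for SCARNA7 (1.75 and not called without cell 1), 0.67 to 1.72 for SCARNA10 and -0.79 to 0.74 for SCARNA22. With scaling from snoRNAs alone, SCARNA2 was at -0.90 and SCARNA9 at -0.79, neither called, SCARNA10 at 2.94, SCARNA12 at 1.67 and SCARNA22 at 1.90, all called, and SCARNA20 at 1.29. SCARNA10 was called at 1.47 with at least 50 counts in 3 libraries. SCARNA22 was at 0.19 with total counts, 0.03 with upper-quartile scaling, 0.11 with the 50-count filter and 0.05 without rRNA features; the cause was not tested.

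The design text speaks of 3 pairs without naming them, and whether replicate numbers mark them is unknown. Deviations of exosome and cell libraries with the same number correlated at 0.102, -0.0425 and 0.0875, and those with different numbers at -0.158 to 0.0551. These values do not settle the pairing, and the numbers were not used as pairs in the reported values. With a replicate block on numbers 1 to 3, SCARNA22 was at 0.21, the calls of the 7 were unchanged, and 162 features were higher and 171 lower, against 181 and 217 in the same 6 libraries without the block (added after seeing the data); 17 H/ACA snoRNAs and 3 snRNAs were lower and 1 snRNA higher. Without the block, 1 snRNA was higher in those libraries.

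Scaling from snoRNAs gave 539 features higher and 52 lower. It gave 1 and 0 among the other small Cajal body RNAs, 10 and 2 among H/ACA snoRNAs, 17 and 37 among C/D snoRNAs and 16 and 0 among snRNAs. For snRNAs, 3 were lower with total counts and 2 with the 50-count filter. Without the low-count filter 3 C/D snoRNAs were higher. With 1 library left out, 1 to 3 H/ACA snoRNAs were higher and 15 to 35 lower, and 1 to 2 snRNAs were higher and 3 to 7 lower. The difference in the share of the 7 was -0.0127 percentage points without rRNA reads, in place of -0.0242.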
